A study of Mus musculus with 3 samples.

Results

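Basophil and mast lineage cells were picked out of single-cell RNA sequencing of mouse intervertebral discs. They were chosen by their measured UMIs of 10 genes, so those genes describe the cells and were not tested. A barcode was kept when it held at least 500 genes and at most 15% of its UMIs (unique molecular identifiers, 1 per captured RNA molecule) came from mitochondrial genes. A kept barcode was a basophil and mast lineage cell when it held a UMI of at least 3 of the 6 genes Mcpt8, Cpa3, Fcer1a, Ms4a2, Prss34 and Gata2, with Mcpt8 or Prss34 among them. The rule also asked that Elane, Mpo, Prtn3 and Ctsg, the primary granule genes of neutrophil promyelocytes, add up to less than 1% of the UMIs. It found 111 of 26882 kept barcodes, from 30229 deposited. Library 1 held 29 such cells of 5732 (0.506%, 95% Clopper-Pearson interval 0.339 to 0.726), library 2 held 47 of 10786 (0.436%, 0.320 to 0.579) and library 3 held 35 of 10364 (0.338%, 0.235 to 0.469). The intervals overlap, and they cover counting error only.

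The 3 libraries form 1 group of untreated mice at postnatal day 30 with the genotype shh-cre:R26R-tdTomato, in which Cre recombinase made from the Shh locus switches on the red protein tdTomato. Each library pooled litter-matched animals, so no value can be assigned to 1 mouse. Lumbar, thoracic and caudal discs were cut free through the bony endplates of the vertebrae, diced, digested with collagenase, passed through a 50 µm filter and enriched for tdTomato by cell sorting before 10x Genomics 3' v3 library preparation. All comparisons here are between kinds of cells within these libraries, because the design has no second condition. Shh itself had 0 UMIs in the basophil and mast lineage cells, which allows a level of up to 1.75 CPM (UMIs of a gene scaled to a common total), and whether they carried tdTomato was not analysed here.

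Basophils are granulocytes made in the bone marrow from progenitors that they share with mast cells. Both lineages carry the high-affinity IgE receptor, whose alpha chain is encoded by Fcer1a, beta chain by Ms4a2 and signalling gamma chain by Fcer1g, and answer its crosslinking with histamine, leukotrienes and IL-4. In the mouse the serine proteases encoded by Mcpt8 and Prss34 mark basophils, the carboxypeptidase of Cpa3 is shared with mast cells, and mature connective tissue mast cells store the chymases and tryptases of Cma1, Mcpt4, Tpsb2 and Tpsab1. GATA2 is a zinc finger transcription factor that both lineages need, and its family binds the letters AGATAA and close relatives.

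Promoters of 4 genes of the rule and of Cd200r3, a receptor described further on, are shown because these genes mark the cells and because Gata2 is 1 of the 6 genes of the rule. Each run is the 250 bases before the start that the RefSeq promoter table gives for the gene on GRCm38.p6, 5′ to 3′ on the gene's strand, with matches on either strand in capitals. The motifs searched were AGATAA and its relative AGATAG, together with TGATAA and its relative TGATAG. The windows are chr14:56085198-56085447 (minus strand) for Mcpt8, chr17:25298144-25298393 (plus) for Prss34, chr3:20242182-20242431 (minus) for Cpa3, chr19:11623720-11623969 (minus) for Ms4a2 and chr16:44943428-44943677 (plus) for Cd200r3. RefSeq places the whole of Mcpt8 at chr14:56082166-56085273, so its run, read on the minus strand, begins outside that span and ends inside it.
Mcpt8: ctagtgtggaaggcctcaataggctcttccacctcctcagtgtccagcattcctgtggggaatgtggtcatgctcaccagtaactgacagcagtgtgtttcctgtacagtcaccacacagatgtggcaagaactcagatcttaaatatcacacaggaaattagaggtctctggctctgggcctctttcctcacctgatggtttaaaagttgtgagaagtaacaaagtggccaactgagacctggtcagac
Prss34: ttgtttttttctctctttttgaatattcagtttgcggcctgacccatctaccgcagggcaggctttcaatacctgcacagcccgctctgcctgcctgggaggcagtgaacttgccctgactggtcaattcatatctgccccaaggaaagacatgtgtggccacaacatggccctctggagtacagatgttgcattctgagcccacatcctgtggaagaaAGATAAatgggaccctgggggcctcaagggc
Cpa3: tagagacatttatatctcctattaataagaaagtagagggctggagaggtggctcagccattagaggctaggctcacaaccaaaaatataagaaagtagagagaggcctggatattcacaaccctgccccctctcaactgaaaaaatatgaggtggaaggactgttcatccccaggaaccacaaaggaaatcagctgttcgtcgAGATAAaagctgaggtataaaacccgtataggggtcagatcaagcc
Ms4a2: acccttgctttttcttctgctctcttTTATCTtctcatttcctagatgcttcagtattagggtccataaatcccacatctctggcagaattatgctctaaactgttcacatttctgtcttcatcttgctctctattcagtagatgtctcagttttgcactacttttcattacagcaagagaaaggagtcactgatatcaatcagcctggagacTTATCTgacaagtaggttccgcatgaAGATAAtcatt
Cd200r3: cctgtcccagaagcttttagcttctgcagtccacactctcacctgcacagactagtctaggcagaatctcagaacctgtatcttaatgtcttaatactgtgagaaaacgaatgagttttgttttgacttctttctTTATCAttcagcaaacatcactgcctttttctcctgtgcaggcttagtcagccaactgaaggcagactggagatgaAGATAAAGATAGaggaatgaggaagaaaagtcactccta
Prss34 held 1 match, starting 31 bases before the start, and Cpa3 held 1, at 46 bases. Ms4a2 held 3, at 224, 37 and 11 bases, of which 2 lie on the other strand, and Cd200r3 held 3, at 115, 39 and 33 bases, of which 1 lies on the other strand and 2 follow each other directly. No match was found in the Mcpt8 window. For scale, 8718 of 32851 windows of this length in the table (26.5%) held at least 1 match and 6.40% held 2 or more. A match is a description of letters and not evidence of binding.

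The cells were deeply covered. Their median was 16209, 13478 and 13083 UMIs and 3541, 3309 and 3158 genes per cell in libraries 1, 2 and 3, above the medians of 6592, 8630.5 and 8679.5 UMIs over all kept cells. The shallowest had 1742 UMIs and the deepest 49425. Their UMIs summed to 470204, 773620 and 469452 in the 3 libraries, and mitochondrial genes took a median of 2.63%, 2.71% and 2.46%. The libraries share 24 to 224 barcodes pairwise, and none of these is a basophil and mast lineage cell. B lineage cells, which should lack the genes of the rule, served as the background of free RNA. They were kept barcodes outside the rule with a UMI of at least 3 of 9 B lineage markers. Their 7856 cells were shallower, with medians of 3027.5, 4369 and 3238.5 UMIs.

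Mcpt8 and Prss34, the 2 basophil proteases, spanned a wide range from cell to cell. Mcpt8 stood at 4970, 12666 and 13009 CPM in libraries 1, 2 and 3 and had a UMI in 110 of the 111 cells, against 1.71% of B lineage cells. Prss34 stood at 8577, 17361 and 26476 CPM and was found in 83 cells, against 1.03% of B lineage cells. Both proteases were lowest in library 1. Within cells Mcpt8 ran from 0 to 748 UMIs with a median of 88, and the median was 7 in library 1, 142 in library 2 and 140 in library 3. Prss34 ran from 0 to 1234 UMIs with a median of 109, and its medians were 3, 194 and 153. Both proteases were present in 82 cells. The rule asked for a UMI of Mcpt8 or Prss34, and B lineage cells were taken from barcodes outside it. The shares of cells with a UMI therefore follow in part from the selection. The lower quartile of Mcpt8 was 4 UMIs, and whether such low counts exceed free RNA was not tested.

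The carboxypeptidase gene Cpa3 stood at 1253, 1918 and 2277 CPM, lowest in library 1 as well, with a UMI in 110 cells and in 0.356% of B lineage cells. Ms4a2 stood at 308, 558 and 488 CPM and was found in 90 cells, against 0.140% of B lineage cells. Fcer1a had a UMI in 45 cells and stood at 251, 147 and 351 CPM, against 0.0255% of B lineage cells with a UMI. The transcription factor gene Gata2 stood at 517, 359 and 343 CPM, was highest in library 1, and had a UMI in 107 cells against 0.496% of B lineage cells. After thinning every cell to 2000 UMIs, which kept 109 of the 111 cells and 6454 B lineage cells, the shares of cells with a UMI were 75.2% for Mcpt8, 67.0% for Prss34, 82.6% for Cpa3, 56.9% for Ms4a2, 28.4% for Fcer1a and 49.5% for Gata2. The same shares in thinned B lineage cells were 0.263%, 0.434%, 0.108%, 0%, 0.0310% and 0.124%.

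The edges of the rule were well filled. All 6 genes were seen in 38 cells, 5 in 42, 4 in 14 and exactly 3 in 17. Just outside lay 42 barcodes with 2 of the 6, 16 without Mcpt8 or Prss34, and 54 whose primary granule genes reached 1% or more. Of the cells inside, 20 had between 0.8% and 1% of primary granule UMIs, and 13 of the barcodes outside had between 1% and 1.2%. The 54 barcodes excluded for their primary granule genes had a median of 3, 5 and 4 Mcpt8 UMIs in the 3 libraries. Ctsg, the cathepsin G gene whose product neutrophil precursors and mast cells both store, remained at 1774, 3045 and 3142 CPM inside the rule.

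**Figure D1:**
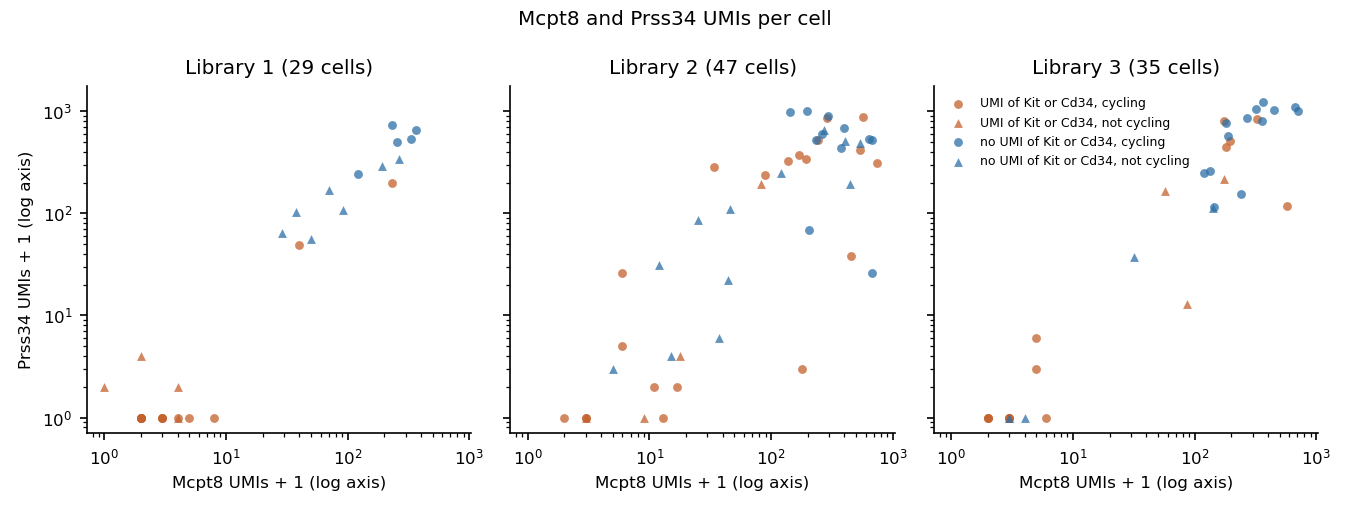
UMIs of Mcpt8 (x axis) and Prss34 (y axis) in each of the 111 cells, both plus 1 on log axes, in 1 panel per library, coloured by whether the cell had a UMI of Kit or Cd34 and shaped by whether it was called cycling. Cells with under 20 Mcpt8 UMIs are mostly cells with Kit or Cd34 (36 of 41), and library 1 holds 8 of the 54 cells with 100 or more.

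The low and the high end of Mcpt8 held different cells. Of the 41 cells with fewer than 20 Mcpt8 UMIs, 15, 14 and 12 came from libraries 1, 2 and 3. Among them 36 had a UMI of Kit or Cd34, receptors and surface proteins of early progenitors, 28 were called cycling (a UMI of at least 5 of 20 cell cycle genes), 13 had Prss34 and 5 had Fcer1a. Of the 54 cells with 100 or more Mcpt8 UMIs, 8, 26 and 20 came from the 3 libraries, and 17 had Kit or Cd34, 45 were called cycling and 33 had Fcer1a. These classes were drawn on a gene of the rule and are given as counts, with no test.

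The granule proteases of mature mast cells, which the rule had not used, were at or near 0 in nearly all cells, while other genes of the mast cell list were present, so the cells are called by their rule and no mast cell was identified as a class. Mcpt4, Mcpt1, Tpsb2, Tpsab1 and the receptor gene Mrgprb2 had 0 UMIs in all 111 cells, which allows a level of up to 1.75 CPM each. Cma1 was found in 2 cells (0.0509% of B lineage cells). One cell of library 3 held 21 UMIs of Cma1, 48 of Gzmb, 43 of Cpa3, 8 of Kit and 2 of Mcpt8. Mcpt2, the chymase of mucosal mast cells, was found in 8 cells (0.0127% of B lineage cells) and stood at 0, 42.7 and 564 CPM. All 8 were called cycling, as were 76 of all 111 cells, and cycling cells were deeper (median 17056 UMIs against 6672). Of the Mcpt2 UMIs in library 3, 263 came from 1 cell that also held 572 of Mcpt8. The highest cell of library 2 held 22 beside 454 of Mcpt8. Of the 11 genes of the mast cell list, 6 had a UMI and 4 averaged 50 CPM or more. The list as a whole took 0.0215%, 0.0472% and 0.103% of the UMIs in the 3 libraries, against 0.00300%, 0.00202% and 0.00147% in all other kept cells. The members of the list with enough UMIs for a test were Kit, the amine transporter gene Slc18a2, the heparan sulphate enzyme gene Hs3st1 and Cyp11a1, and none of these encodes a granule protease. By edgeR's adjusted p, and beside the shares of all genes called that are given with each comparison below, 3 of 4 were higher than in neutrophil promyelocytes, 3 of 3 than in progenitors (Kit set that gate), 4 of 4 than in monocytes and 4 of 4 than in all other kept cells.

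In 4 cells the granule genes of eosinophils were high. Prg2, which encodes the major basic protein of eosinophil granules, reached 368 and 801 UMIs in a pair of cells of library 1 and 344 and 1202 in a pair of library 2, and no other cell had more than 1 (0.586% of B lineage cells had a UMI). The same 4 cells held 14, 22, 10 and 87 UMIs of Epx, the eosinophil peroxidase gene, and 17, 42, 49 and 50 of Prg3. Their Mcpt8 was low, at 0, 1, 2 and 10 UMIs, and each had a UMI of Kit or Cd34. Because of them Prg2 stood at 2486, 2000 and 2.13 CPM in the sums of the 3 libraries and Epx at 76.6, 125 and 0. The eosinophil list of 10 genes took 0.273%, 0.234% and 0.00682% of the UMIs, and Ear6 was at 0. Without these 4 cells and the Cma1 cell the shares of kept cells were 0.471%, 0.417% and 0.328%.

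**Figure D2:**
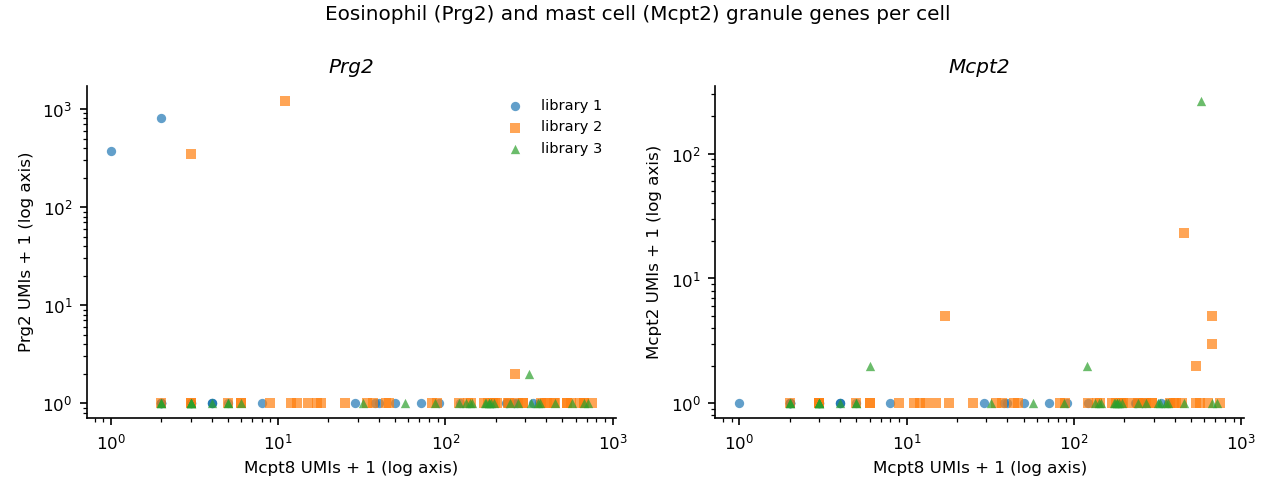
UMIs of Prg2 (left) and Mcpt2 (right) against UMIs of Mcpt8 in each cell, all plus 1 on log axes, with 1 marker shape per library. The 4 cells with 344 to 1202 Prg2 UMIs have at most 10 Mcpt8 UMIs, while the cell with 263 Mcpt2 UMIs has 572.

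RNA of other cell types was present in some barcodes. In 13 cells (2, 6 and 5 by library) the marker genes of another lineage exceeded 1% of the UMIs. Haemoglobin and other erythroid genes did so in 6 cells, of which 5 came from library 3. Neutrophil secondary granule and S100a8 class genes did so in 6 cells, of which 4 came from library 2. The monocyte list did so in 1 cell of library 2, and the chondrocyte list in 1 cell of library 1 that held 1325 UMIs of Col2a1. A typical cell held little of these: the median was 5 UMIs for S100a8, 2 for Camp and 2 for Hbb-bs, with highest values of 3204, 913 and 3705. As a result the neutrophil list took 1.53%, 2.91% and 0.422% of the summed UMIs, against 14.5%, 13.4% and 12.8% in all other kept cells, and the erythroid list took 0.0215%, 0.529% and 3.60% (0.730%, 3.94% and 2.30% in the others). Whether these barcodes are doublets was not tested beyond a doublet score, which marked 8 of the 111 cells at the rate used.

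Cells of 3 gates were compared with the basophil and mast lineage cells, each as UMIs summed per library. The promyelocyte gate held 426, 726 and 1037 cells with 1% or more of primary granule UMIs. It takes in the 6, 23 and 25 barcodes, 54 in all, that met the lineage gene part of the rule. What these barcodes add to the levels of that gate was not tested. The progenitor gate held 213, 193 and 236 cells with at least 3 of Cd34, Kit, Flt3, Adgrg1, Meis1, Hoxa9 and Angpt1. The monocyte gate held 217, 1348 and 734 cells with at least 3 of Ccr2, F13a1, Ly6c2, Csf1r, Ms4a6c and Fn1, and 107 cells met both of the last gates. All 3 comparisons use the same basophil and mast lineage cells, so they are not independent of each other. Fewer cells carrying a gene and less RNA per cell cannot be told apart in these sums. Log2 fold changes below are those of the edgeR quasi-likelihood fit with the library as block, and p-values are adjusted by the Benjamini-Hochberg method over all genes tested.

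Against the promyelocyte gate, 1123 genes were higher and 1156 lower in the basophil and mast lineage cells of 10725 tested, that is 10.5% and 10.8% and together 21.2%, with a median log2 fold change over all genes of -0.01. Receptor, cytokine and mediator genes were among the rises, and genes of neutrophil precursors among the falls. The promyelocyte gate was deeper, with medians of 28418, 36054 and 31952 UMIs per cell. Of the 45 genes followed by name in this comparison, 44 kept their call in every alternative that gave a value.

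Cd200r3, an activating receptor of the CD200R family found on basophils and mast cells, stood at 111, 278 and 334 CPM in libraries 1, 2 and 3 against 0, 1.11 and 0.916 in the promyelocyte gate. All 3 sums lay above all 3 of the gate, and the log2 fold change was 8.28 ± 0.28 (SE, n = 3 libraries; adjusted p = 2.8e-10 by edgeR). Il1rl1, which encodes the IL-33 receptor, stood at 36.2, 32.3 and 31.95 CPM against 0.472, 0.706 and 0.473, a log2 fold change of 5.74. Il3ra, the receptor chain for IL-3 that drives basophil growth, was also higher, at 129.7, 149.9 and 192 CPM against 29.4, 31.6 and 36.2 (log2 fold change 2.13). Its mouse-specific partner Csf2rb2 rose by 4.03 on the log2 scale, the IL-18 receptor gene Il18r1 by 4.47 and the TSLP receptor gene Crlf2 by 1.45. Csf3r, the G-CSF receptor of the neutrophil line, went the other way, at 21.3, 18.1 and 4.26 CPM against 65.99, 42.1 and 44.7 (log2 fold change -1.87). Of 44 listed surface receptors tested, 23 were higher and 6 lower, with a median log2 fold change of 1.22 against -0.01 over all genes.

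Of 19 cytokine genes tested 13 rose and 1 fell, with a median log2 fold change of 2.23. Immediate early genes, which respond quickly to many stimuli, moved with them: 14 of 16 were higher and none lower, with a median of 1.64. They took 1.73%, 0.744% and 0.853% of the UMIs of the basophil and mast lineage cells and 0.961%, 0.444% and 0.382% of those of all other kept cells, highest in library 1 in both. Their part in the cytokine difference was not tested. Il4, the type 2 cytokine for which basophils are known, stood at 119, 43.9 and 34.1 CPM and was highest in library 1, against 0, 0.2601 and 0.0591 in the promyelocyte gate (log2 fold change 8.51 ± 0.54 SE; adjusted p = 1.2e-07 by edgeR). Il6 stood at 181, 90.5 and 34.1 CPM against 0.0787, 0.186 and 0.236 (log2 fold change 8.52 ± 0.43). A UMI of Il4 was found in 40 of the 111 cells and of Il6 in 46, against 0.0255% and 0.0127% of B lineage cells. The chemokine gene Ccl3 stood at 1636, 760.1 and 498 CPM against 120.4, 20.99 and 23.4 (log2 fold change 4.31). Csf1, the growth factor of macrophages and osteoclast precursors, stood at 119, 95.7 and 80.9 CPM against 2.99, 2.08 and 1.48 (5.39), and Hgf, the hepatocyte growth factor gene, at 51.04, 56.9 and 63.9 against 4.25, 3.01 and 2.07 (4.13). Osm, the oncostatin M gene, rose by 2.23 on the log2 scale, and this call was lost without the library block. Library 1 had the highest level of most of these genes, also in the promyelocyte gate for Ccl3, Csf1 and Osm. Hgf was highest in library 1 in the gate but lowest in library 1 in the basophil and mast lineage cells. In the gate Il4 and Il6 were lowest in library 1. Cxcl2 shows the difference most, at 1442, 34.9 and 55.4 CPM in the basophil and mast lineage cells.

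Genes for making and storing mediators differed by enzyme. Hdc, the histidine decarboxylase that makes histamine, stood at 432, 583 and 394 CPM against 115, 84.3 and 105 (log2 fold change 2.07 ± 0.17 SE; adjusted p = 1.7e-06 by edgeR). Slc18a2, the vesicle transporter that loads histamine into granules, stood at 91.5, 67.2 and 57.5 CPM against 0.236, 1.003 and 0.384 (6.79). The 5-lipoxygenase gene Alox5 was higher by 3.41 and Alox15 by 7.45, whereas Lta4h, the hydrolase that turns leukotriene A4 into B4, was lower, at 68.1, 85.3 and 70.3 CPM against 269, 286 and 401 (log2 fold change -2.19). Of 19 amine and lipid mediator genes tested, 9 were higher and 4 lower.

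Among genes of IgE receptor signalling, 8 of 22 tested were higher and 4 lower. The adaptor genes Lat and Lat2, which carry the signal of the receptor inward, rose by 5.09 and 3.47 on the log2 scale, and the gamma chain gene Fcer1g stood at 549, 1215 and 1233 CPM against 281, 411 and 398 (1.26). Of 30 genes of granule secretion 9 were higher and 4 lower. The higher ones include the syntaxin gene Stx3, at 72.3, 114 and 78.8 CPM against 3.46, 3.57 and 3.19 (log2 fold change 4.57), the small GTPase gene Rab37 (3.84) and the synaptotagmin-like gene Sytl3 (7.63). Of 27 adhesion genes 14 were higher and 4 lower. Itga2b, the integrin CD41 known from platelets and early haematopoietic cells, stood at 111, 156 and 143 CPM against 1.42, 1.86 and 1.86 (6.18), and Itgb7, an integrin beta chain of mast cell progenitors and basophils, rose by 3.56.

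The transcription factors divided, with 14 of 36 tested higher and 9 lower. Ikzf2, which encodes Helios, stood at 177, 194 and 158 CPM against 7.0, 4.46 and 4.23 (log2 fold change 4.99 ± 0.19 SE; adjusted p = 8.3e-10 by edgeR). Gata1, the factor of erythroid, mast and eosinophil lines, rose by 3.69, Lmo4 by 2.47, Runx1 by 2.25 and Cebpa by 1.24. Factors of neutrophils and monocytes were lower. Cebpe, needed for secondary granules, stood at 42.5, 96.9 and 12.8 CPM against 347, 359 and 381 (-2.98), Gfi1 at 14.9, 6.46 and 17.04 against 77.6, 76.9 and 83.2 (-2.87) and Irf8 at 19.1, 12.9 and 10.7 against 59.5, 121 and 108 (-2.93).

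Cyp11a1, counted above with the mast cell list, encodes the enzyme that starts steroid synthesis from cholesterol. It stood at 68.1, 269 and 298 CPM against 0.0787, 1.63 and 1.39 (log2 fold change 7.53). Csrp3, a LIM protein gene best known from muscle, stood at 151, 409.8 and 343 against 2.202, 3.16 and 2.098 (6.80), and the growth factor gene Fgf3 at 31.9, 74.97 and 89.5 against 0.157, 1.003 and 0.443 (6.81). Lag3, an inhibitory receptor gene best known from T cells, rose by 8.31. Gzmb, the granzyme B gene, rose by 6.44; of its 89 UMIs, 48 lie in the Cma1 cell of library 3. The falls were led by the lectin gene Mgl2, with 2 UMIs in the basophil and mast lineage cells, by Ly6c2, at 21.3, 33.6 and 14.9 CPM against 875, 795 and 816 (-5.23), and by the ficolin gene Fcnb, at 59.5, 19.4 and 6.39 against 587, 552 and 708 (-4.66). Cldn15 fell by 4.48, the myeloid receptor gene Clec5a by 3.99 and Trem3 by 3.83 on the log2 scale. Of 16 early progenitor genes, 15 were tested, 9 were higher and none was lower, by edgeR's adjusted p.

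**Figure D3:**
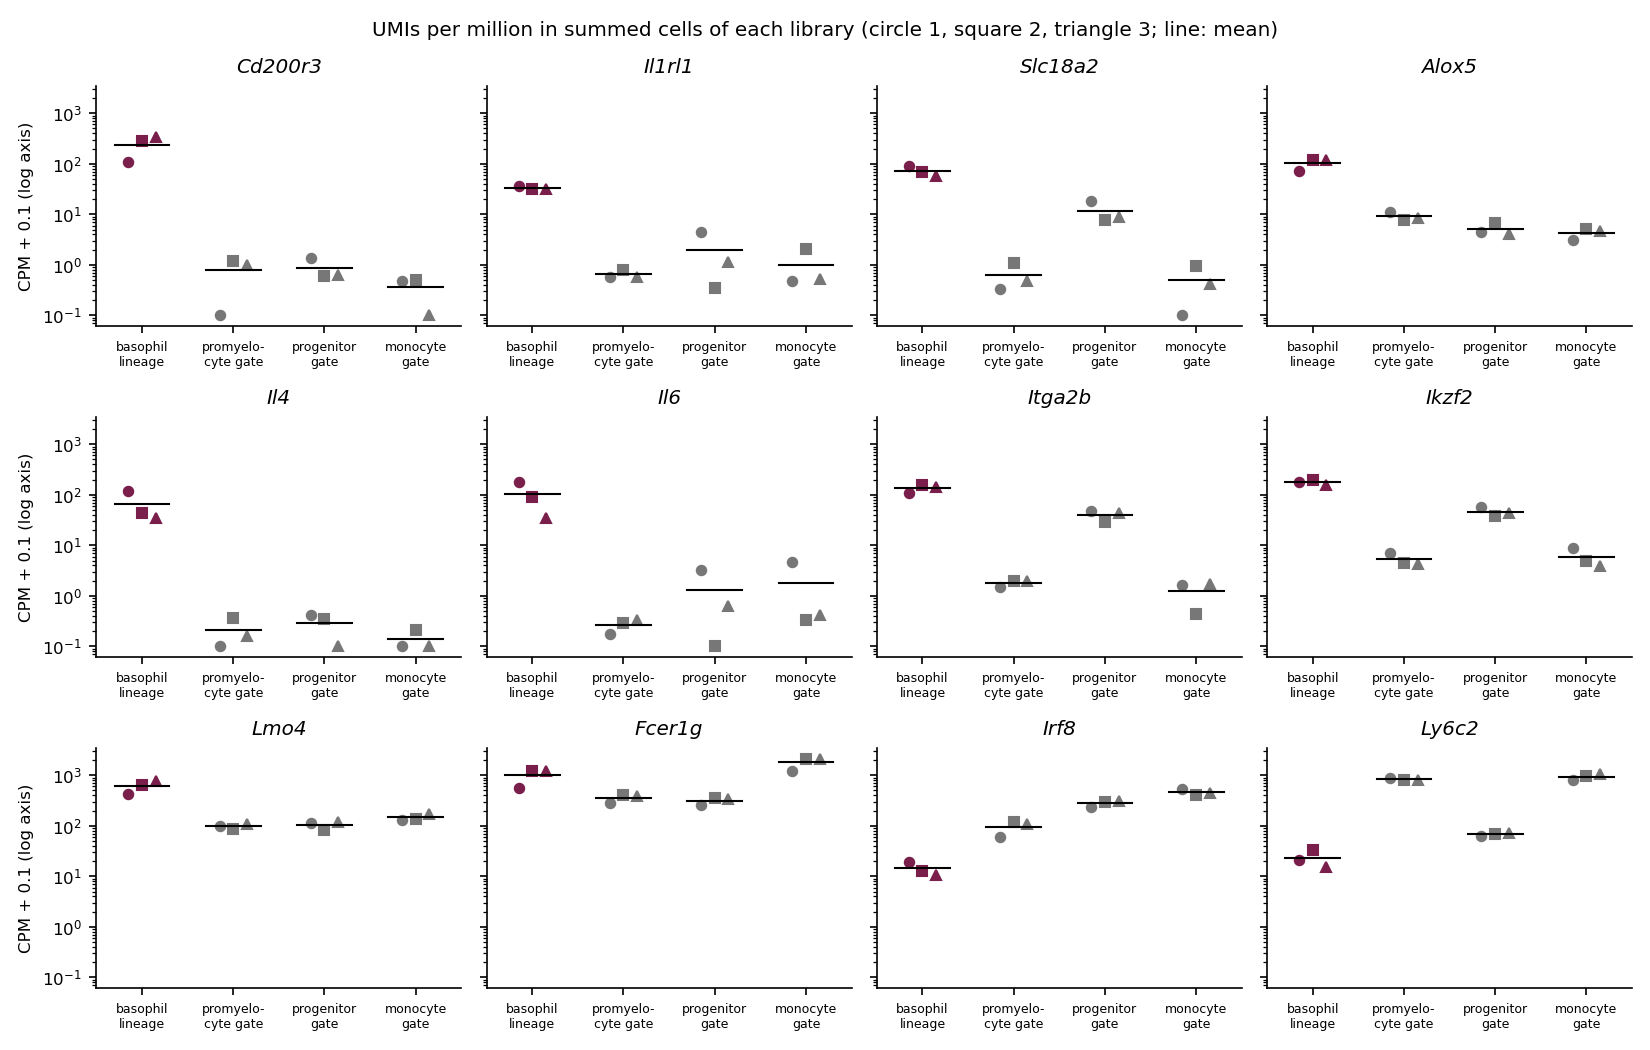
Levels of 12 genes in the summed cells of each library, as CPM plus 0.1 on a log axis, for the basophil and mast lineage cells and the 3 gates, with 1 marker shape per library and a line at the mean. Cd200r3 lies at 111 to 334 CPM in the basophil and mast lineage cells and below 2 in every sum of the gates, while Irf8 lies at 10.7 to 19.1 CPM and is higher in every sum of the gates.

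Against the progenitor gate, 622 genes were higher (6.32%) and 639 lower (6.50%) of 9838 tested (together 12.8%), with a median of -0.02. This gate also held connective tissue and endothelial cells. Igfbp5 and Cdh5 had 0 UMIs in the basophil and mast lineage cells and were at least 85.4-fold and 28.9-fold lower (3 UMIs over all libraries as the floor), and Dcn had 3 UMIs against 5140. Without gate cells that had a UMI of Dcn, Col3a1, Cdh5, Igfbp5 or Bgn, 548 genes were higher and 265 lower.

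Receptor and mediator genes were again among the rises. Cd200r3 stood at 1.26, 0.507 and 0.5199 CPM in the progenitor gate (log2 fold change 8.45 ± 0.34 SE; adjusted p = 4.8e-08 by edgeR), Cyp11a1 at 0.943, 0.761 and 1.04 (7.98) and Csrp3 at 10.4, 2.03 and 4.94 (5.90). Rnase12, a gene of the ribonuclease A family, stood at 99.96, 212 and 134 CPM against 0.943, 1.01 and 2.34 (6.83). Hdc stood at 56.6, 18.8 and 28.1 CPM in the progenitor gate (4.07), Alox5 at 4.401, 6.595 and 3.899 (4.54) and the P450 gene Cyp4f18, whose enzyme breaks down leukotriene B4, at 5.34, 7.102 and 5.46 (4.60). Of 17 cytokine genes tested 12 were higher and none lower. They include Il6, at 3.14, 0 and 0.5199 CPM in the gate (6.63), and Il4, which had 106 UMIs in the basophil and mast lineage cells and 2 in the gate. Of 36 surface receptors 18 were higher and 2 lower, among the former the low-affinity IgG receptor gene Fcgr3, at 104, 268 and 281 CPM against 11.6, 16.7 and 17.7 (3.97). Srgn, the core protein that packs proteases in granules, stood at 2458, 2574 and 3169.7 CPM against 967, 724 and 881 (1.87).

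Of 31 transcription factors tested 10 were higher and 3 lower. Lmo4 was higher by 2.71, Ikzf2 by 2.15 and Runx1 by 1.40 on the log2 scale, and Gata1 by 1.79 (adjusted p = 0.00426 by edgeR, and 0.145 without the library block, over a range of 5.3e-05 to 0.145). Irf8, which directs monocyte and dendritic cell fates, stood at 19.1, 12.9 and 10.7 CPM against 239, 298 and 314 (-4.14). Genes of stem and multipotent cells were lower: Hlf stood at 6.38, 9.05 and 10.7 CPM against 37.1, 39.8 and 35.9 (-1.92), Egfl7 at 46.8, 72.4 and 85.2 against 221, 297 and 242 (-1.72) and Cd27 at 29.8, 31.02 and 36.2 against 48.4, 95.4 and 98.5 (-1.12), the last a call lost without the block. Of the early progenitor genes that the gate had not used, 9 were tested, 6 were lower and none was higher. The gate was chosen by genes of this kind, so that count follows in part from the selection.

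Against the monocyte gate, 1051 genes were higher (11.4%) and 1385 lower (15.1%) of 9197 tested (together 26.5%), with a median of -0.01, and leaving out library 2 left 1539 calls. Csrp3 and Cyp11a1 had 549 and 380 UMIs in the basophil and mast lineage cells and 1 each in the 2299 gate cells. Cd200r3 stood at 0.378, 0.399 and 0 CPM in the monocyte gate (log2 fold change 9.94 ± 0.37 SE; adjusted p = 2.0e-06 by edgeR), Itga2b at 1.51, 0.342 and 1.62 (7.34) and Rnase12 at 0.378, 1.59 and 1.403 (6.97). Slc22a3, an organic cation transporter that moves histamine, stood at 40.4, 54.3 and 55.4 CPM against 0.378, 0.7404 and 0.864 (6.17). Myb, a factor of dividing progenitors, was higher by 2.48 and Rab37 by 4.44.

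The IgE receptor genes did not all point one way in this comparison, with 4 of 22 tested higher and 8 lower. Lat rose by 4.72, while Fcer1g, which also serves IgG receptors of monocytes, stood at 549, 1215 and 1233 CPM against 1215, 2108 and 2063 and was lower by edgeR (log2 fold change -0.84), a call lost without the block. Genes known from monocytes and macrophages were among the falls, and all 5 monocyte markers that the gate had not used were lower. The gate was chosen by monocyte genes, so these falls follow in part from the selection. S100a4 stood at 4.25, 14.2 and 10.7 CPM against 877, 1681 and 1525 (-7.06), the pore-forming Mpeg1 at 2.13, 6.46 and 2.13 against 233, 328 and 283 (-6.11) and Irf8 at 19.1, 12.9 and 10.7 against 548, 398 and 446 (-4.96). Trem2 had 0 UMIs, at least 40.0-fold lower with 3 UMIs as the floor, and the chemokine gene Ccl2 had 2 against 3540. Id2 was lower by -2.46 and Itgb7 by -1.44 on the log2 scale. Of 37 surface receptors 17 were higher and 9 lower. The cytokine and immediate early genes divided here, unlike against the promyelocyte gate. Of 19 cytokine genes 8 were higher and 5 lower, and of 16 immediate early genes 6 and 6. Transcription factors gave 13 higher and 10 lower of 36, adhesion genes 10 and 9 of 26, and amine and lipid genes 6 and 2 of 17. Of 8 granule protease genes outside the rule none was higher and 4 were lower.

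Against all other kept cells 730 genes were higher (5.25%) and 1863 lower (13.4%) of 13903 tested (together 18.7%), with a median of -0.18. Of 47 surface receptors 20 were higher and 12 lower, of 24 cytokines 11 and 5, and of 20 amine and lipid genes 9 and 2. Of 12 neutrophil markers 11 were lower, and of 9 B lineage markers all 9.

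Many of the cells carried RNA of cell division genes, and how many were called cycling depended on depth. A cell was called cycling when it had a UMI of at least 5 of 20 genes of DNA replication and mitosis, which was so for 18 of 29, 31 of 47 and 27 of 35 cells, that is 62.1% (Clopper-Pearson 42.3 to 79.3), 66.0% (50.7 to 79.1) and 77.1% (59.9 to 89.6). There were 4 cells with 4 such genes and 8 with 5, of which 5 lay in library 3. Asking for at least 6 genes gave 17, 29 and 22 cells, or 58.6%, 61.7% and 62.9%, so the higher share of library 3 rests on the cells at the threshold. Depth goes with the call: the cycling cells had medians of 21096, 18990 and 14084 UMIs and the others 7779, 6505 and 4660. After thinning to 2000 UMIs, 39 of 109 cells (35.8%) had 5 or more of the genes. Thinning only removes UMIs, so these 39 necessarily lie among the 76 called at full depth. The same call held for 98.4%, 70.9% and 52.2% of the promyelocyte, progenitor and monocyte gates at full depth and for 50.5%, 35.2% and 36.3% after thinning. In B lineage cells it held for 42.9% and, thinned, 42.8%. No cell type free of division was set as a background, so free RNA was not measured for these genes. Mki67, a marker of dividing cells, stood at 204, 169 and 160 CPM in the sum of all 111 cells. Of the 20 cycle genes, 3 were lower than in the promyelocyte gate and none higher by edgeR, where 10.8% of all genes tested were lower and 10.5% higher, so the count is near that background.

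**Figure D4:**
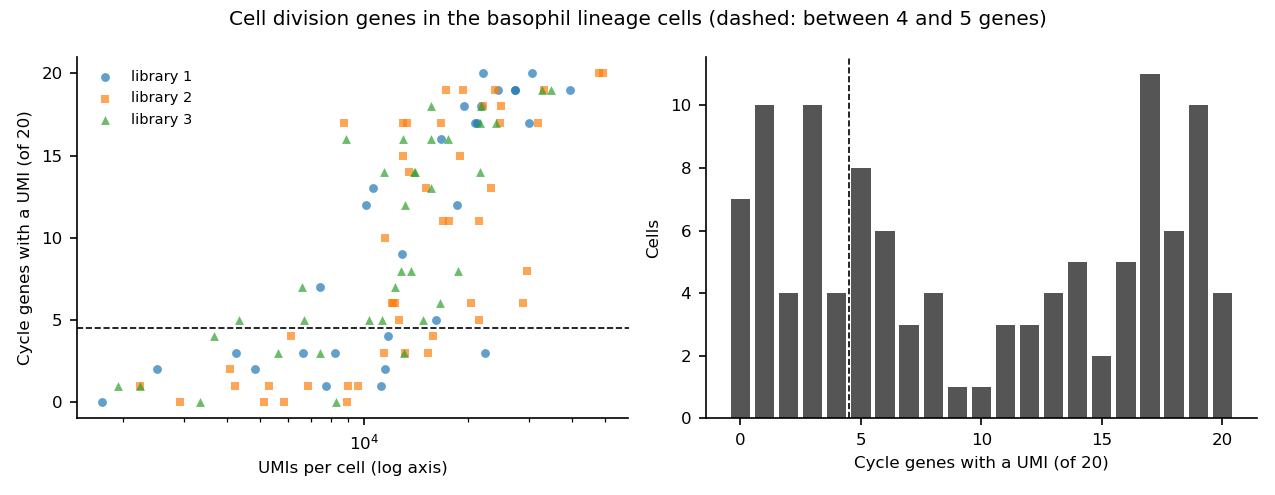
Number of the 20 cycle genes with a UMI in each cell against its UMIs on a log axis (left) and the number of cells at each count of cycle genes (right), with a dashed line between 4 and 5. Cells over the line, 76 of 111, are also the deeper ones, and 12 cells stand at 4 or 5 genes.

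Between cycling and other cells, 140 genes were higher (4.28%) and 105 lower (3.21%) of 3269 tested (together 7.49%), with a median of -0.02; the 20 cycle genes are a description and not part of the results. Other genes of division followed them: Pclaf, a partner of PCNA, stood at 262, 230.1 and 201 CPM in the cycling cells and had 0 UMIs in the others, so it was at least 20.3-fold higher with 3 UMIs as the floor. Spc24, of the kinetochore, and Prc1, of the central spindle, also had 0 UMIs in the others and were at least 13.1-fold and 8.70-fold higher. These genes act in the same process as the 20 used and are no separate finding.

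Of 14 cytokine genes tested 7 were lower in cycling cells and none higher. Csf1 stood at 63.6, 61.8 and 63.7 CPM in cycling and 345, 269.8 and 241 in other cells, without overlap (log2 fold change -2.25 ± 0.27 SE; adjusted p = 4.0e-04 by edgeR). Ccl3 stood at 1198, 397 and 333 against 3418, 2627 and 2037 (-2.33) and Ccl4 at 1894, 181 and 89.7 against 3946, 1135 and 1117 (-2.38). Il4 fell by 1.77, a call lost without the block and without library 3. Il6 fell by 1.62, but it lost its call in 6 of 15 alternatives. The receptor genes Csf2rb2 and Lilrb4a fell by 2.48 and 2.32, the signalling inhibitor gene Spry2 by 2.45, the galectin gene Lgals3 by 2.31, Lat2 by 1.504, the tetraspanin gene Cd9 by 1.21 and Hdc by 1.14 on the log2 scale. At least 8000 UMIs were held by 17, 31 and 24 cycling cells of libraries 1, 2 and 3, but by only 5, 7 and 2 others. Among these deeper cells the differences were smaller: Ccl3 was at -0.76 (adjusted p = 0.360 by edgeR), Ccl4 at -0.07 (0.953) and Csf1 at -1.41 (0.0778). Whether depth or the few cells lost these calls was not tested. Over all alternatives, by edgeR or DESeq2, the adjusted p-values of Ccl3, Ccl4 and Csf1 ran from 4.3e-24 to 0.360, from 5.1e-22 to 0.953 and from 3.7e-07 to 0.0778. In the same cells Il6 was at -0.56 (0.672), Hdc at -0.66 (0.290), Lat2 at -0.98 (0.228), Cd9 at -0.88 (0.297) and Lgals3 at -1.47 (0.103), all by edgeR. Of the 20 genes followed by name and called in this comparison, 2 kept their call in every alternative that gave a value, Pclaf and Spc24. Without library 3 50 calls remained in number, and without library 1 there were 416.

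Genes of other cell types also stood higher in the cycling cells. All 7 neutrophil markers tested and 3 of 4 erythroid markers were called higher, among them Camp, at 2106, 2857 and 519 CPM against 237, 175 and 131 (log2 fold change 3.23 by edgeR), and Hbb-bs, at 84.8, 4139.8 and 25486 against 53.9, 317 and 175 (4.61). Without the 13 cells in which another lineage exceeded 1% of the UMIs the sign turned, to -0.80 for Camp, -0.67 for Ngp, -0.54 for S100a8 and -0.69 for Hbb-bs, and 389 genes were called.

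The last comparison split the cells by Kit, the stem cell factor receptor gene, and Cd34, surface genes of early progenitors that the rule had not used. A UMI of either was found in 17, 24 and 18 cells, and of neither in 12, 23 and 17. Kit was found in 40 cells and Cd34 in 51, against 4.53% and 2.04% of the shallower B lineage cells. Those cells were chosen by B lineage markers among the barcodes outside the rule. Whether they make Kit or Cd34 themselves was not tested, so these shares do not measure free RNA. The cells with one were deeper, at medians of 20957, 20939 and 13898 UMIs against 8004, 11399 and 12297, and 47 of 59 were cycling against 29 of 52. The genes of the rule differed between the sides, which is given as a description. Mcpt8 stood at 881, 7170 and 6014 CPM with Kit or Cd34 and at 16234, 24502 and 25035 without, Prss34 at 728, 9095 and 10491 against 30200, 35161 and 53957, and Fcer1a at 0, 37.9 and 162 against 942, 383 and 678. Fcer1a had a UMI in 10 of the 59 and in 35 of the 52. Gata2 differed less, at 319, 274 and 313 CPM against 1062, 542 and 394.

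Of 3387 genes tested, 235 were higher (6.94%) and 305 lower (9.01%) in the cells with Kit or Cd34 (together 15.9%), with a median of 0.01. Of 6 other early progenitor genes tested 2 were higher and none lower. Ctla2a, a cathepsin inhibitor gene, stood at 417, 136 and 293 CPM against 31.9, 12.2 and 5.79 (log2 fold change 3.86 ± 0.34 SE; adjusted p = 0.00146 by edgeR). Egfl7 stood at 63.8, 96.5 and 125 against 0, 20.4 and 17.4 (2.56), the transcription factor gene Mef2c at 183, 98.4 and 77.5 against 23.96, 28.5 and 0 (2.45) and Myb at 359, 265 and 195 against 71.9, 114 and 69.5 (1.44). The metallothionein gene Mt1 was higher by 2.39 and the adhesion receptor gene Adgrl4 by 3.09. Nrgn, a calmodulin-binding protein gene, had 92 UMIs against 1, and the mucin gene Muc13 had 103 against 3. None of the 20 cycle genes tested was called in either direction.

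Cytokine, receptor and mediator genes were among the falls. Of 13 cytokine genes 8 were lower and none higher, with a median log2 fold change of -2.34. Ccl3 stood at 95.7, 131 and 269.5 CPM with Kit or Cd34 and 5877, 2116 and 892 without (log2 fold change -4.05 ± 0.67 SE; adjusted p = 0.00798 by edgeR), and this call held in every alternative run. Il6 stood at 2.899, 43.5 and 6.74 against 671, 192 and 81.1 (-3.85) and Il4 at 2.899, 24.6 and 13.5 against 439, 85.6 and 69.5 (-3.53). Of 17 surface receptors 11 were lower and none higher. Cd200r3 stood at 8.696, 104 and 138 against 391, 652 and 672 (-3.14), the chemokine receptor gene Ccr1 at 0, 41.6 and 57.3 against 95.8, 188 and 209 (-2.54) and Il3ra at 113, 121 and 135 against 176, 212 and 289.6 (-1.04). Fcer1g stood at 261, 736 and 782 against 1342, 2246 and 2010.0 (-1.95), 1 of 5 lower of 13 IgE receptor genes.

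Of 9 amine and lipid mediator genes 4 were lower and none higher. Hdc stood at 168, 396 and 310.0 CPM with Kit or Cd34 and 1158, 986 and 539 without (log2 fold change -1.79), Alox5 at 31.9, 70.04 and 77.5 against 184, 220.1 and 185 (-1.90) and Cyp4f18 at 5.798, 54.9 and 64.01 against 192, 424 and 342 (-3.19), all by edgeR. Cd63, a granule membrane protein that basophils show on release, stood at 586, 1298 and 970.3 against 1908, 2287 and 2578 (-1.49). Slc18a2 was not called, at 78.3, 71.9 and 47.2 CPM against 128, 57.1 and 75.3 (-0.47; adjusted p = 0.354). The protease inhibitor genes Slpi and Serpine2 fell by 3.74 and 3.18 on the log2 scale and Spry2 by 3.65. Cebpb, a factor of late myeloid cells, stood at 145, 186 and 182 against 854, 534 and 458 (-1.97), and 7 of 18 listed transcription factors were lower with Myb alone higher. Immediate early genes were lower in 13 of 14 tested, Jun by 1.29 on the log2 scale.

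Haemoglobin differed as well, with 3 of 4 erythroid markers lower: Hbb-bs stood at 69.6, 178 and 97.7 CPM with Kit or Cd34 and 104, 10708 and 62444 without. That call was lost in 4 alternatives, and 6 cells carry the erythroid RNA described before.

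**Figure D5:**
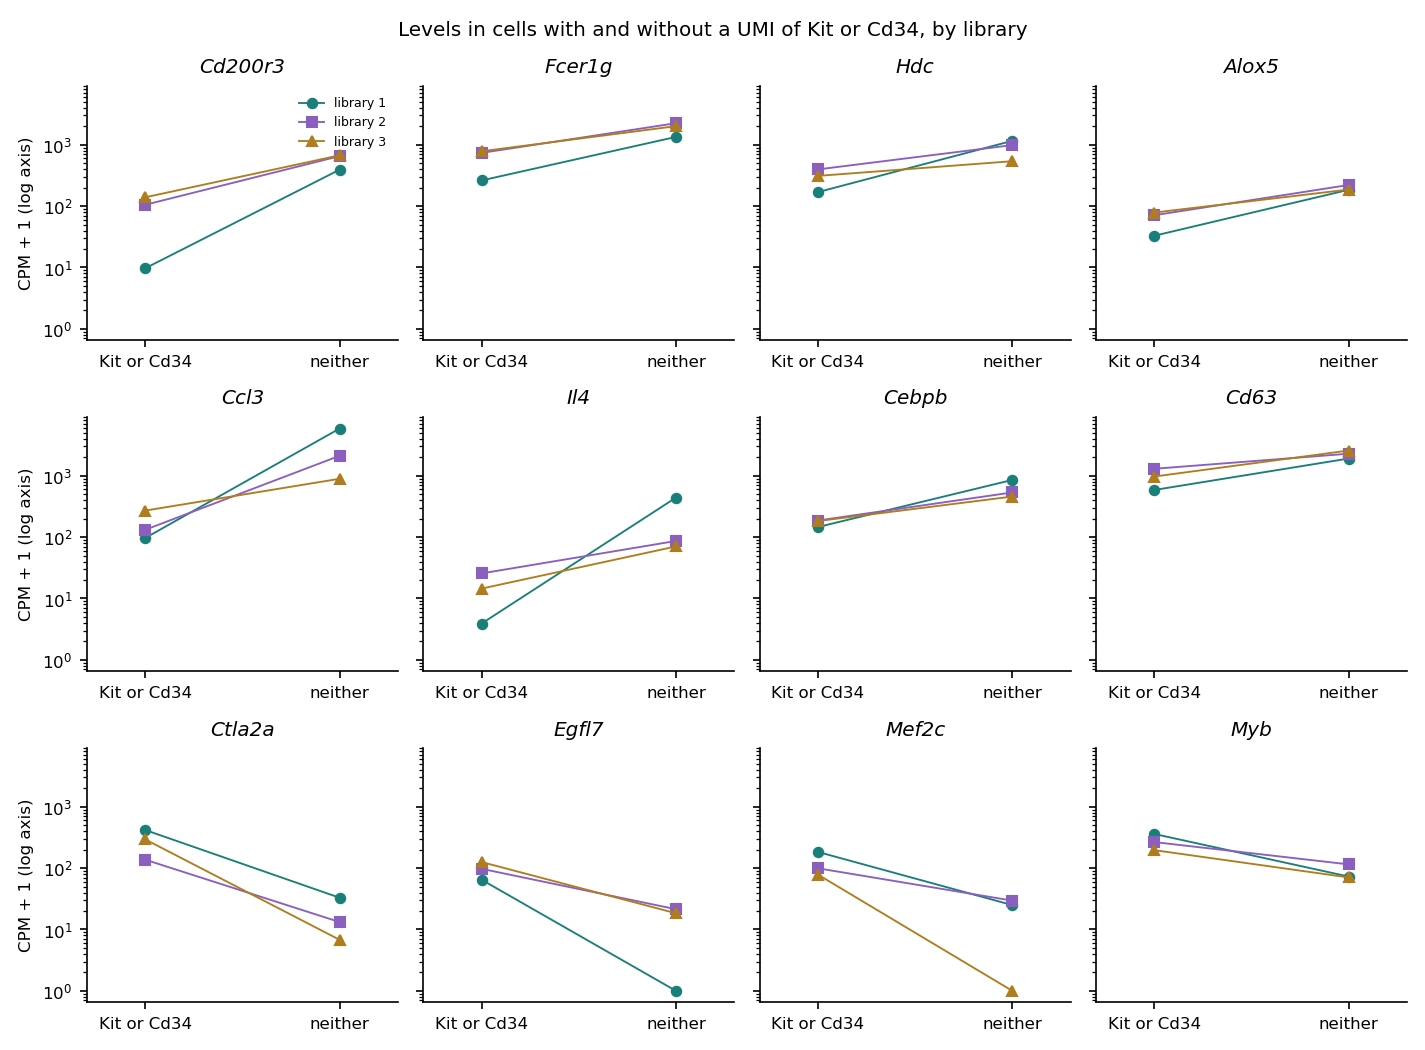
Levels of 12 genes in cells with a UMI of Kit or Cd34 and in cells with neither, as CPM plus 1 on a log axis, with 1 line and marker shape per library. Cd200r3, Fcer1g, Hdc, Alox5, Ccl3, Il4, Cebpb and Cd63 rise from left to right in all 3 libraries, and Ctla2a, Egfl7, Mef2c and Myb fall in all 3.

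These counts rest on few cells. Without library 3, 66 genes were called, without library 2, 290, and among the cycling cells alone 303. Of 34 genes followed by name and called here, 9 kept their call in every alternative that gave a value, Ctla2a, Ccl3, Slpi, Spry2, Cyp4f18, Cd200r3, Alox5, Cebpb and Fcer1g.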

How the data were processed

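The deposited matrices hold counts, that is unnormalized whole numbers of UMIs per gene and barcode; the barcodes listed had already been filtered. Per the submitters' processing notes Cell Ranger 3.0.2, Seurat 4 and mm10 were used, while the matrix headers name version 3.0.1 for library 1 and 6.0.0 for libraries 2 and 3. Library 1 lists 31053 genes and the others 32285; the 30406 shared gene IDs were used. The libraries hold 64695292, 145925353 and 137188648 UMIs in 7430, 11767 and 11032 barcodes. A low count limits precision, and intervals cover counting error only.

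Cells were read in Python 3.11.15 and gated by the stated rule, with no doublet removal. For each library the UMIs of a class of cells were added up, and the sums were compared with edgeR 4.0.16 (filterByExpr, TMM, quasi-likelihood; R 4.3.3). The library entered as a block: the sums to be compared within it stem from 1 pool of animals, so the pairing comes from the design. A gene with an adjusted p under 0.05 was called. The SE is the log2 fold change over the square root of the F statistic. The code was tested on simulated counts. Genes used by a gate or split are given as description. The 3 libraries are the replicates. The block takes out the level of each library, so p-values measure how much the difference within a library varies between libraries. In edgeR the estimate of that spread also borrows from other genes.

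The cells and the 24 gene lists were chosen with earlier results of these data known. Named genes are, for each comparison, among the 10 largest rises and the 10 largest falls of called genes with the same direction in every library and, in the higher sum, a mean of 50 CPM or more (leaving out mt-, ribosomal, haemoglobin, immunoglobulin and unnamed genes), and list genes with such a mean. Other named genes, such as Gata1, Gfi1, Irf8, Il1rl1, Il18r1, Csf2rb2, Csf3r, Alox15 and Sytl3, which are below 50 CPM in the cells described, and Hbb-bs were chosen after their values were seen. Alternatives were DESeq2 1.42.0, no block, no count filter, leaving out each library, other gates and limits, Scrublet (scanpy 1.11.5) at 0.8% per 1000 barcodes, and 6 others added after seeing the data. Promoters are from RefSeq.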

Additional observations from a re-analysis of the deposited data

How the results depend on the processing

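Of 2182 checks of a named gene under an alternative, 2056 kept the direction and the side of the threshold, 114 lost the call, 8 reversed and 4 levels moved by more than 1 SD between libraries. In numbers of called genes, without the library block (no replicate block) there were 1153 against the promyelocyte gate, 508 against the progenitor gate, 1454 against the monocyte gate, 634 against all other cells, 86 between cycling and other cells and 135 in the Kit or Cd34 split. DESeq2's Wald test called 755 against the progenitor gate, 97 for cycling and 266 for the Kit or Cd34 split. With no filter on low counts the last 2 gave 585 and 901. Leaving out cells with 3 or more marker genes of another lineage gave 139 and 127, and the share of kept cells fell to 0.207% from a mean of 0.427%. Leaving out cells with over 1% of such UMIs gave 389 for cycling. Cells with at least 8000 UMIs gave 114 and 310, cycling cells alone 303 for the Kit or Cd34 split, and the progenitor gate without connective and endothelial UMIs 813.

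Leaving out 1 library at a time gave 1618 to 2097 against promyelocytes, 1103 to 1776 against progenitors, 1539 to 2869 against monocytes, 1856 to 2458 against all other cells, 50 to 416 for cycling (50 without library 3, 416 without library 1) and 66 to 540 for Kit or Cd34 (66 without library 3, 290 without library 2). The cause of these changes in number was not tested. Between cycling and other cells, leaving out cells with 3 or more other-lineage genes, or with over 1% of such UMIs, turned Camp to -0.80 and -0.80, Ngp to -1.08 and -0.67, S100a8 to -1.80 and -0.54 and Hbb-bs to -0.68 and -0.69 on the log2 scale. The share of cells called cycling had a mean of 68.4% over libraries, 71.9% at 4 or more cycle genes, 61.1% at 6 or more, 36.5% after thinning to 2000 UMIs, and 64.0% to 71.6% leaving out 1 library. The share of kept cells was 0.583% with 2 of the 6 genes, 0.613% with no limit on primary granule genes and 0.325% after thinning to 2000 UMIs. The level of Fcer1a became 449 CPM thinned and 440 CPM as a mean over cells, and that of Gata2 513 and 574. With 111 cells, depth limits the splits within them.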
